A study of Mus musculus with 15 samples.

Results

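The proteasome genes outside the immunoproteasome were followed in tumors grown from Tsc2-deficient 105K cells. They are all rows of the expression table whose symbol starts with PSMA to PSMG and a number, without PSMB8, PSMB9 and PSMB10. This rule took 47 of 24891 genes: 16 PSMA and PSMB genes of the 20S core, 21 PSMC and PSMD genes of the 19S cap, 5 PSME genes of the activators and 5 PSMF and PSMG genes. Of these, 31 encode the subunits of the 20S core and the 19S cap that all cells use (core subunits below): 14 of the alpha and beta rings and 17 of the cap. Not every other gene is a subunit. PSMC3IP is a recombination factor that shares only the letters of its name, PSMD5, PSMD9, PSMD10 and the 4 PSMG genes encode assembly chaperones, PSMF1 a regulator that binds the core, and PSME2B is a single-exon retrogene copy of PSME2.

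The 26S proteasome degrades proteins that carry ubiquitin. Its barrel, the 20S core, is built of alpha rings that gate the entrance and beta rings that hold the proteolytic sites, and the catalytic sites of most cells are PSMB5, PSMB6 and PSMB7. The 19S cap binds ubiquitin chains, removes them and unfolds the substrate with a ring of ATPases. Interferon-γ makes cells replace the constitutive catalytic subunits by PSMB8, PSMB9 and PSMB10, and also raises the PA28 alpha and beta chains, PSME1 and PSME2, which form another cap that opens the core and favours peptides for MHC class I.

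RNA was sequenced from 15 libraries, 3 in each of 5 groups. All came from subcutaneous tumors of Tsc2-/- 105K renal tumor cells in wild-type C57BL/6J mice, which were male and 6 weeks old when inoculated. The cells were mixed pools rather than single clones, selected with puromycin after lentiviral transduction with a non-target shRNA, sh-NC, or with 1 of 2 shRNAs against separate stretches of the B7-H3 (Cd276) mRNA. The latter pools are called sh-B7-H3 (1), which was profiled as whole tumors (bulk) and as tumor cells left after magnetic depletion of other cells (sorted), and its counterpart sh-B7-H3 (2), which was profiled as sorted cells. The sh-NC pool was profiled in both ways. The labels do not tie bulk to sorted libraries or tell whether a library came from 1 tumor, so the p-values measure the spread between libraries only. Values are FPKM, which scales fragments by transcript length and library size, divided by a further factor per library (scaled FPKM), so levels of different genes are compared per unit of transcript length, and differences are on the scale of log2(scaled FPKM + 1).

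CD276 itself did not separate all groups by their labels. Its level was 34, 20 and 17.3 scaled FPKM in the sorted sh-NC libraries, 7.29, 14 and 11.5 in sorted sh-B7-H3 (1) and 23.3, 25.4 and 25.7 in sorted sh-B7-H3 (2). In bulk tumors it was 20.8, 23.2 and 23.5 with sh-NC and 22.3, 17.8 and 24.4 with sh-B7-H3 (1). Against sorted sh-NC, the log2 difference was -1.04 ± 0.29 (SE, adjusted p = 0.0547) for sh-B7-H3 (1) and 0.12 ± 0.23 (adjusted p = 0.775) for sh-B7-H3 (2), and in bulk tumors it was -0.07 ± 0.13 (adjusted p = 0.709). The sh-B7-H3 groups below are therefore the libraries labelled so, and a direction given for bulk tumors or for sh-B7-H3 (2) is one between labels, with no fall of CD276 beside it. Depth in reads was not computed, since the values used were FPKM. Summed over 10 leukocyte markers, the level was 3.95 to 10 scaled FPKM in 8 of the 9 sorted libraries and 320 in replicate 1 of the libraries labelled sorted sh-B7-H3 (2), close to the 304 to 603 of bulk tumors. The summed level of 6 endothelial markers was 19.4 in that library and 0.279 to 0.728 in the other sorted ones. The sorted results for PA28, the catalytic ratios and the wider pathway are also given without it. One RNA, MIR6236, took 6.01% to 79.7% of a library's summed FPKM. The scaling factors, 0.65 to 1.18, were medians of ratios over 9872 genes, from which it was not left out.

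The promoters of the 3 PA28 genes are shown first, because PSME1 and PSME2 had, with the copy PSME2B, the largest differences between sorted groups, while PSME3 did not pass the test. RefSeq (GRCm38.p6) gave a promoter, 250 bases before to 50 after a transcript start, for 39 of the 47 genes. The windows are chr14:55578244-55578543 (+ strand) for PSME1, chr14:55591052-55591351 (- strand, the first of 2 listed starts) for PSME2 and chr11:101315963-101316262 (+ strand) for PSME3. Capitals mark the interferon-stimulated response element searched, GAAA, any 2 bases, GAAA, on either strand.
PSME1: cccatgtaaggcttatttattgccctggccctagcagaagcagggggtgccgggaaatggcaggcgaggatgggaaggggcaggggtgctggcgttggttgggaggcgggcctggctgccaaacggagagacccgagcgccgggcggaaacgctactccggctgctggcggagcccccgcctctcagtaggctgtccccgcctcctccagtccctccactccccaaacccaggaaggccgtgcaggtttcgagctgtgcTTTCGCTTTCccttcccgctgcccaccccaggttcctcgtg
PSME2: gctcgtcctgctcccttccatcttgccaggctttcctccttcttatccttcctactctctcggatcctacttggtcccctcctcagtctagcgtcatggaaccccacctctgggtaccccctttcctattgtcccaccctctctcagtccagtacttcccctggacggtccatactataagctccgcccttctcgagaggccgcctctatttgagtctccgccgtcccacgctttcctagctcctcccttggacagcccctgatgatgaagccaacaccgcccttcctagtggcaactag
PSME3: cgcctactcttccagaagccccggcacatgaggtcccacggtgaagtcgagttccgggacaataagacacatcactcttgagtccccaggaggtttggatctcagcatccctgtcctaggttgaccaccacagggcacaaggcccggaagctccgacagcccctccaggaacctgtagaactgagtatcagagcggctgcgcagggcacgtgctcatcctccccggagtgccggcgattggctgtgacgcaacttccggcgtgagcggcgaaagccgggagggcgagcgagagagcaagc

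PSME1 held the element at bases 260 to 269 of its window, on the strand opposite to the gene, and no window of PSME2 or PSME3 held it. Among all genes of the group, 5 of 39 held it (PSMB3, PSMD4, PSMD9, PSME1 and PSMG4, 12.8%), against 3.99% of the 27025 genes with a window and 3.44% of the 32851 windows. The gamma-activated site TTCNNNGAA was in 2 of 39 (PSMD2 and PSMG1, 5.13%) and in 9.55% of all genes (8.3% of windows). The core of the antioxidant response element, TGACNNNGC, which is bound by NFE2L1 and NFE2L2, was in 6 of 39 (PSMB5, PSMB6, PSMC6, PSMD9, PSMD12 and PSME4, 15.4%) and in 14% of all genes (12.4% of windows). The 3 motifs were searched on both strands, a gene with several starts was counted when any of its windows matched, and the windows printed hold 1 match. These matches describe letters and not binding. In the annotation (GENCODE vM21, GRCm38), PSME1 (chr14:55578123-55581529, + strand) and PSME2 (chr14:55587441-55591113, - strand) are neighbours with 5911 bases between them, and PSME3 lies on chromosome 11 (chr11:101316213-101323537, + strand).

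Some of these genes have close copies. Of the stretches of 75 bases, the length of a read, in the transcripts of the retrogene PSME2B (chr11:48945354-48946190), 60.2% also occur in PSME2, and 22.9% of those of PSME2 occur in PSME2B, so the split of reads between the pair is uncertain. For PSMB5 the share found in other genes was 36.8%, mostly in the processed pseudogene Gm3375, and for PSMA5 it was 35.2%. No other gene of the 47 was above 25%, and PSME1 was at 1.31%. The stretches were pooled over all annotated transcripts of a gene, so these are not shares of the RNA expressed.

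In bulk sh-NC tumors the 31 core subunits had means between 39.2 (PSMA3) and 192 scaled FPKM (PSMD8), with a median of 88.7. PSMD8, a subunit of the 19S lid, was also the highest in sorted sh-NC cells with 291 ± 46.6 (SD, n = 3), ahead of PSMB7 and PSMB1, whose means of 188 lay within their SDs of each other. The beta ring was more even than the alpha ring: in bulk sh-NC tumors its highest mean was 1.66 times its lowest, against 4.11 times in the alpha ring. Of the activators, PSME4, the PA200 activator of the nucleus, was at 22.2 ± 2.95 in bulk sh-NC and PSME3, the nuclear PA28 gamma, at 47.1 ± 3.62, below PSME2 at 82.8 ± 5.84 and PSME1 at 96.2 ± 4.19. The genes of special proteasomes were at or near 0: PSMA8, the alpha subunit of testis, did not exceed 0.217 scaled FPKM in any library, PSMB11 of the thymus did not exceed 0.014, and neither reached the minimum for testing, which left 45 genes tested in every comparison.

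Members differed in how much they varied over the 15 libraries. The coefficient of variation was 8.68% for PSMD7 and 9.04% for PSMD2, the scaffold of the 19S base, and 44.6% for PSME2 and 35.1% for PSME1. Core genes reached like values: PSMA5 (35.9%) and PSMA6 (35.4%) of the 20S core and PSMD14 (34.3%) of the 19S lid were close to PSME1. The sorted sh-NC libraries had the largest SD of the summed 20S level, 568. The summed level of the 20S genes was 1349, 2013 and 2479 scaled FPKM in them, 2549, 1969 and 1968 in sorted sh-B7-H3 (1), 2381, 1817 and 1957 in sorted sh-B7-H3 (2), 1501, 1605 and 1675 in bulk sh-NC and 1274, 1393 and 1275 in bulk sh-B7-H3 (1). In the sorted sh-NC libraries MIR6236 took 9.43%, 51.6% and 6.24% of the FPKM, and its part in this spread was not tested.

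**Figure D1:**
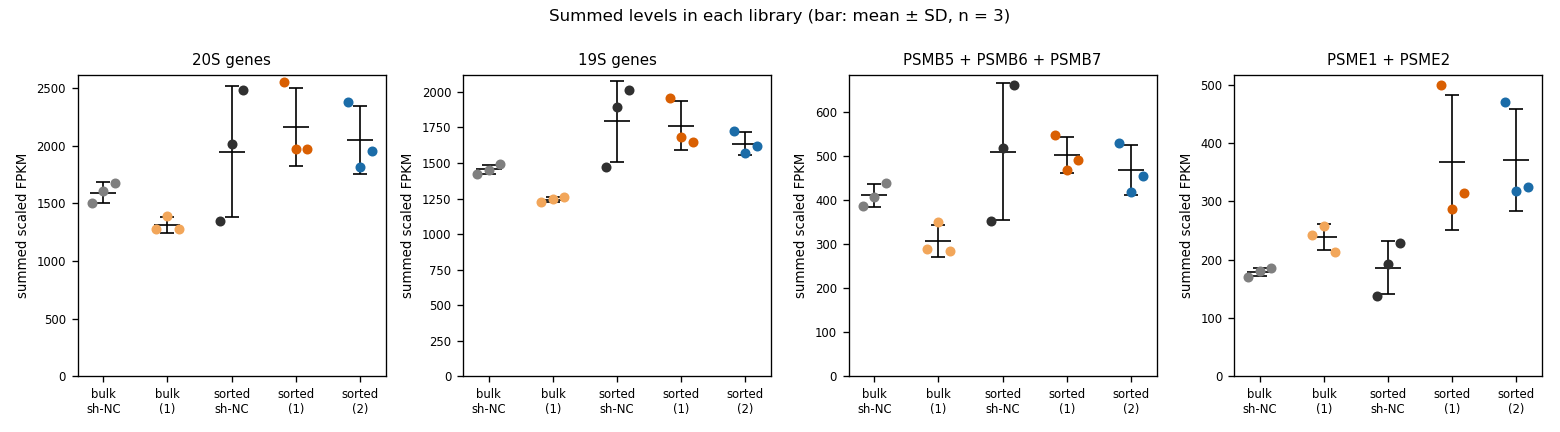
Summed scaled FPKM of the 20S genes, the 19S genes, the constitutive catalytic genes and PSME1 with PSME2 (y axis) in each library of the 5 groups (x axis), with points for libraries and bars for mean ± SD (n = 3). The sum of PSME1 and PSME2 is 138 to 229 in sorted sh-NC and 287 to 499 in the 6 sorted sh-B7-H3 libraries, while the 20S sums of these groups overlap.

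The first comparison asked which proteasome genes differed between sorted tumor cells labelled sh-B7-H3, both pools together, and sorted sh-NC cells. PA28 differed: PSME1 was 1.91-fold and PSME2 2.01-fold higher in the libraries labelled sh-B7-H3, whereas none of the 31 core subunits was higher and 1, PSMD8, was lower. In all, 4 of 45 genes were higher (PSME1, PSME2, PSME2B and PSMG3) and 1 was lower. Over all 11424 genes tested, 12.6% were higher and 7.92% were lower, shares that the counts of 4 and 1 of 45 do not exceed. The median log2 difference was 0.09 over the 45 genes, 0.07 over the core subunits and 0.01 over all genes tested. This fit counts the 6 libraries labelled sh-B7-H3 as independent, although same-numbered libraries of the pools correlated. With the replicate number as a block, 4 of the 45 genes were higher and none lower, against 10.9% and 6.01% of all genes.

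PSME1 stood at 72.3, 101 and 113 scaled FPKM in sorted sh-NC, at 252, 152 and 162 in sh-B7-H3 (1) and at 223, 163 and 152 in sh-B7-H3 (2). The lowest library labelled sh-B7-H3 was above the highest control. The log2 difference was 0.93 ± 0.20 (SE, limma adjusted p = 0.00832). PSME2, its partner chain, stood at 65.7, 91.8 and 116 in sorted sh-NC, at 247, 136 and 153 in sh-B7-H3 (1) and at 248, 154 and 172 in sh-B7-H3 (2). The groups did not overlap here either, and replicate 1 was the highest of each sh-B7-H3 pool for both genes. The log2 difference of PSME2 was 1.01 ± 0.24 (adjusted p = 0.012). The copy PSME2B was at 9.57, 11.5 and 12.3 in sorted sh-NC, 27.6, 19.7 and 20.1 in sh-B7-H3 (1) and 29.1, 20.2 and 19.8 in sh-B7-H3 (2), also without overlap (0.96 ± 0.15, adjusted p = 0.00124). Without the leukocyte-rich replicate 1 of sh-B7-H3 (2), the differences were 0.87 ± 0.21 for PSME1 (adjusted p = 0.0166), 0.92 ± 0.23 for PSME2 (0.0204) and 0.89 ± 0.14 for PSME2B (0.00164). Of the other marker lists, the summed level of the 7 renal epithelial markers was 766 to 950 in sorted sh-NC and 1074 to 1330 in the other sorted libraries, and that of the 7 fibroblast markers was 35.9 to 81.4 against 55.7 to 154. The renal markers did not move together: EPCAM averaged 21.6 in sh-NC and 168 in the other libraries and KRT18 160 and 320, while CDH1 averaged 276 and 196 and PAX8 27.7 and 20.9. CD3E, which defines T cells, was at 0 in all sorted sh-NC libraries, at 0.116, 0.158 and 0.0588 in sh-B7-H3 (1) and at 4.16, 0 and 0.0263 in sh-B7-H3 (2). The part of these cells in the PA28 difference was not tested.

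The other activators did not pass the test. PSME3 was at 53.4, 43.6 and 46.5 scaled FPKM in sorted sh-NC, 50.9, 56.7 and 50.8 in sh-B7-H3 (1) and 51.1, 59.4 and 56.3 in sh-B7-H3 (2), with a log2 difference of 0.18 (95% interval -0.04 to 0.40, adjusted p = 0.248). PSME4 was at 29.6, 17.7 and 19.3 in sh-NC, 16.5, 19.2 and 20.2 in sh-B7-H3 (1) and 18.6, 21.9 and 22.2 in sh-B7-H3 (2). The groups overlapped for both genes, and the difference of PSME4 was -0.13 (95% interval -0.48 to 0.21).

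**Figure D2:**
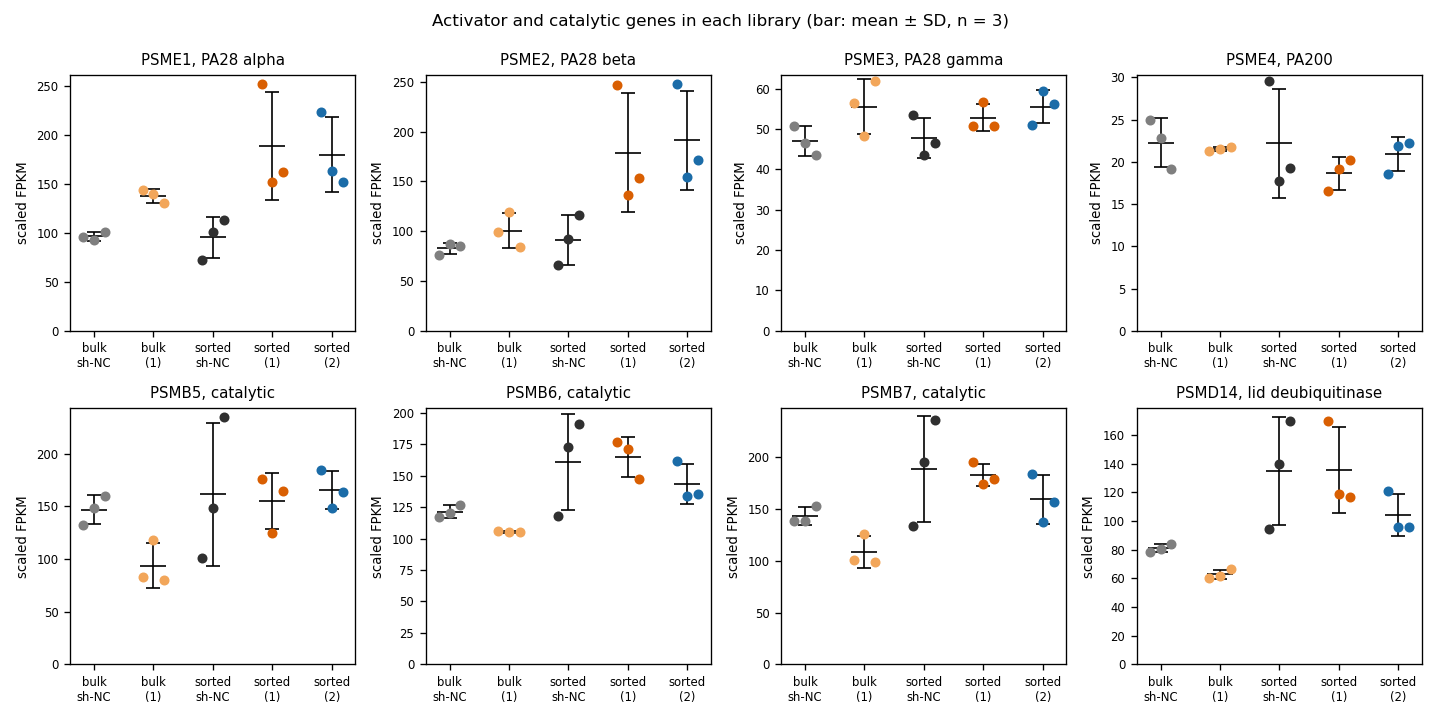
Scaled FPKM (y axes, each starting at 0) of the PA28 genes, PSME4, the constitutive catalytic genes and PSMD14 in each library of the 5 groups (x axis), with points for libraries and bars for mean ± SD (n = 3). In sorted cells PSME1 is at 72.3 to 113 with sh-NC and at 152 to 252 in the libraries labelled sh-B7-H3, while PSMB5 spans 101 to 235 with sh-NC and 125 to 185 in the others.

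The constitutive catalytic subunits overlapped between the sorted groups. PSMB5, which carries the chymotrypsin-like site, was at 101, 149 and 235 scaled FPKM in sh-NC, 176, 125 and 165 in sh-B7-H3 (1) and 185, 149 and 164 in sh-B7-H3 (2). PSMB6, the caspase-like site, was at 118, 173 and 191, then 177, 171 and 147, then 162, 134 and 135 in the same order. PSMB7, the trypsin-like site, was at 134, 195 and 236, then 195, 174 and 179, then 184, 137 and 157. For each of the 3 genes the lowest and the highest sorted values were in sh-NC, where replicate 3 was the highest. The log2 differences were 0.07 (95% interval -0.44 to 0.57) for PSMB5, -0.04 (-0.40 to 0.32) for PSMB6 and -0.11 (-0.50 to 0.28) for PSMB7.

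Among the other core subunits none but PSMD8 passed the test. In the alpha ring 6 of 7 differences were above 0, the largest for PSMA5 (0.54 ± 0.26, adjusted p = 0.178) and PSMA6 (0.47 ± 0.24, adjusted p = 0.205). Of all 11424 genes tested, 5829 were above 0. The 6 ATPases of the 19S base lay between -0.21 (PSMC6) and 0.20 (PSMC2), and the 8 lid genes between -0.45 (PSMD8) and 0.19 (PSMD12). PSMD14, the lid enzyme that cuts ubiquitin chains from the substrate, was at 94.7, 140 and 170 in sh-NC, 170, 119 and 117 in sh-B7-H3 (1) and 121, 95.7 and 95.5 in sh-B7-H3 (2), with overlapping groups and a log2 difference of -0.16 ± 0.21 (adjusted p = 0.665).

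PSMD8 and PSMG3 passed the test by a small margin, and with FPKM as deposited, unscaled, PSMD8 was not called lower. PSMD8 was at 240, 331 and 303 in sh-NC, 241, 229 and 193 in sh-B7-H3 (1) and 200, 205 and 203 in sh-B7-H3 (2), and 1 of the 6 libraries labelled sh-B7-H3 reached into the control range (-0.45 ± 0.13, adjusted p = 0.0333). PSMG3, a chaperone of alpha ring assembly, was at 7.68, 8 and 14.5 in sh-NC, 16.7, 12.8 and 15.1 in sh-B7-H3 (1) and 19, 13.3 and 16.1 in sh-B7-H3 (2), with replicate 3 of sh-NC inside the range of the others (0.62 ± 0.19, adjusted p = 0.0421). Leaving out 1 library at a time gave adjusted p from 0.00705 to 0.171 for PSMD8, with the call lost without sh-NC replicate 2 or 3, sh-B7-H3 (1) replicate 3 or any sh-B7-H3 (2) replicate, and from 0.00287 to 0.189 for PSMG3, with the call lost without sh-NC replicate 1 or 2, or without replicate 1 or 3 of either pool. PSME1, PSME2 and PSME2B stayed past the threshold each time, with adjusted p of at most 0.0309, 0.045 and 0.00711. Without sh-NC replicate 3, 8 genes were higher and none lower, and PSMA5 (0.84), PSMB3 (0.55), PSMB4 (0.72) and PSMG4 (0.62) were added. In that fit 1321 of all 11359 genes tested were higher and 763 lower.

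**Figure D3:**
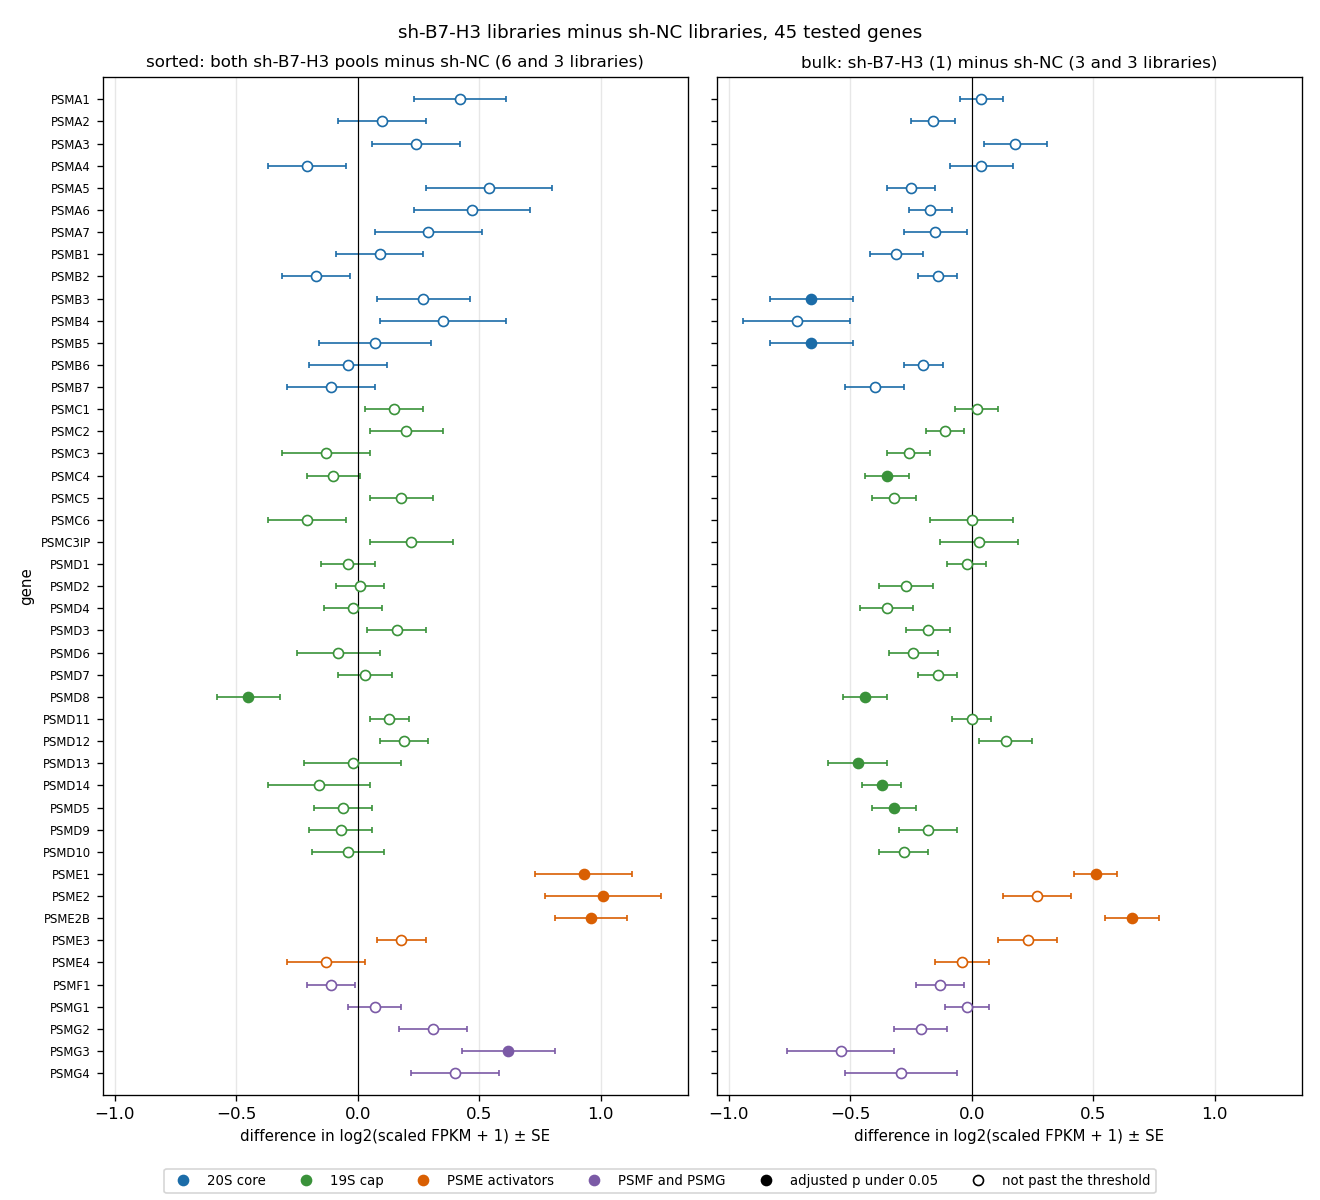
Differences in log2(scaled FPKM + 1) ± SE (x axis) between libraries labelled sh-B7-H3 and sh-NC libraries for the 45 tested genes (y axis), with filled points for adjusted p under 0.05 and colors for the 4 classes. In sorted cells (left, 6 against 3 libraries) PSME1, PSME2 and PSME2B lie between 0.93 and 1.01 and the 31 core subunits between -0.45 and 0.54. In bulk tumors (right, 3 against 3) 34 of 45 differences are below 0, against 5593 of all 11800 genes tested.

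RNA levels of the catalytic subunits were compared as the log2 ratio of each inducible gene to the constitutive one it replaces, within each library. The makeup of assembled proteasomes was not measured. The ratio of PSMB8 to PSMB5 was -1.20, -1.48 and -1.96 in sorted sh-NC, 0.79, 0.36 and 0.26 in sh-B7-H3 (1) and 0.30, 0.08 and 0.04 in sh-B7-H3 (2). Each control was lower than every other library. Whether PSMB8 exceeded PSMB5 is uncertain for ratios near 0, since 36.8% of the stretches of PSMB5 occur in other genes and how such reads were counted is not given in the sources used here. The ratio of PSMB9 to PSMB6 was -3.78 ± 0.09 (SD, n = 3) in sh-NC and -1.01 ± 0.33 (SD, n = 6) in the others, and that of PSMB10 to PSMB7 was -3.29 ± 0.23 and -1.42 ± 0.24. The differences were 1.85, 2.77 and 1.87, each with an adjusted p of 0.0119 by an exact two-sided permutation test over libraries, the smallest p that 6 against 3 libraries can give. This test counts the 6 libraries as independent, although same-numbered libraries of the pools correlated. Without the leukocyte-rich library they were 1.85, 2.73 and 1.85, each with an exact permutation p of 0.0179. The inducible genes passed the test for single genes, and the constitutive ones did not: PSMB8 was higher by 1.92, PSMB9 by 2.73 and PSMB10 by 1.76 in log2 (limma adjusted p of 9.74e-05, 2.4e-05 and 0.000186), and by 1.87, 2.68 and 1.72 without that library (0.000289, 7.52e-05 and 0.00051). Per unit of length, the inducible genes made up 15.8%, 13.3% and 12.8% of the summed catalytic level in sorted sh-NC, 48.8%, 36.7% and 40.6% in sh-B7-H3 (1) and 42.6%, 38.8% and 38.6% in sh-B7-H3 (2).

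**Figure D4:**
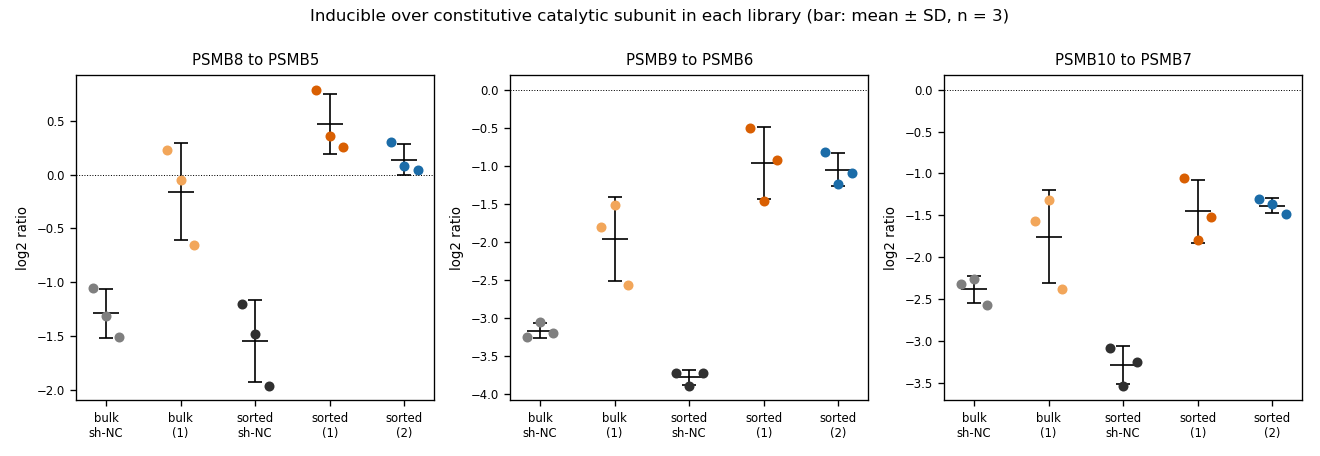
Log2 ratio of scaled FPKM + 1 (y axis) of each inducible catalytic gene to the constitutive gene it replaces in each library of the 5 groups (x axis), with points for libraries and bars for mean ± SD (n = 3). In sorted cells the ratio of PSMB8 to PSMB5 is -1.96 to -1.20 with sh-NC and 0.04 to 0.79 in the libraries labelled sh-B7-H3, with bulk sh-B7-H3 (1) at -0.65 to 0.23.

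Each pool was also compared with sorted sh-NC on its own, with the same 3 control libraries in both fits. With sh-B7-H3 (1), 2 of 45 genes were higher, PSME1 (0.96 ± 0.25, adjusted p = 0.0386) and PSME2B (0.94 ± 0.17, 0.0076), and none was lower, where 9.03% of all genes tested were higher and 4.38% lower. PSME2 missed the threshold there (0.95 ± 0.28, adjusted p = 0.064). With sh-B7-H3 (2), PSME1 (0.90 ± 0.22, adjusted p = 0.0251), PSME2 (1.07 ± 0.26, 0.0234) and PSME2B (0.97 ± 0.18, 0.0074) were higher and none was lower, against a background of 11.7% higher and 7.44% lower. The fits rest on few libraries: without the leukocyte-rich replicate 1 of sh-B7-H3 (2), PSME1 was at 0.74 ± 0.22 (adjusted p = 0.0835) and PSME2 at 0.87 ± 0.25 (0.0747) in that pool. PSME1 lost its call in sh-B7-H3 (1) without any 1 library but sh-NC replicate 3 (adjusted p up to 0.134) and in sh-B7-H3 (2) without any 1 of its own libraries or sh-NC replicate 2 (up to 0.0835), at log2 differences of 0.73 to 1.10 and 0.72 to 1.04. PSME2 passed in sh-B7-H3 (1) without sh-NC replicate 3 (0.0309), and in sh-B7-H3 (2) it also missed the threshold without sh-NC replicate 2 (0.0784) or its own replicate 3 (0.0703). Counting a gene at an unadjusted p under 0.05, limma found 5 of the 45 genes (11.1%) in each fit, below the 24.8% of all genes tested with sh-B7-H3 (1) and the 31.7% with sh-B7-H3 (2).

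Between the pools, which differed in CD276 (-1.16 ± 0.20, adjusted p = 0.0277), none of the 45 genes passed the limma test, and 1 (2.22%), PSMC3, had an unadjusted p under 0.05, against 22% of all genes tested. Of all genes, 1.76% were called higher and 1.64% lower in sh-B7-H3 (1). The difference of PSME1 was 0.05 (95% interval -0.46 to 0.57) and that of PSME2 was -0.12 (-0.71 to 0.48). Same-numbered libraries of these pools correlated (r = 0.51, 0.43 and 0.44), but the labels do not say that they are paired. With the replicate number as a block, 2 genes were higher in sh-B7-H3 (1), the ATPase PSMC3 (0.38 ± 0.05, adjusted p = 0.02) and PSMD14 (0.36 ± 0.06, adjusted p = 0.0298). Both calls rest on that block. In that blocked fit 9.03% of all genes were higher and 7.55% lower, so 2 of 45 is below the background. The blocked fit was not run without the leukocyte-rich library, and without it and the block PSMC3 was at 0.46 ± 0.12 (adjusted p = 0.056) and PSMD14 at 0.48 ± 0.17 (0.122). PSMC3 was at 178, 148 and 153 scaled FPKM in sh-B7-H3 (1) and at 138, 115 and 115 in sh-B7-H3 (2), and was named after its value was seen.

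In bulk tumors labelled sh-B7-H3 (1), PSME1 was 1.43-fold higher than with sh-NC and several core subunits were lower. CD276 RNA of the whole tissue was not lower there. Of 45 genes, 2 were higher (PSME1 and PSME2B) and 7 were lower (PSMB3, PSMB5, PSMC4, PSMD5, PSMD8, PSMD13 and PSMD14). Over all 11800 genes tested, 12.8% were higher and 8.52% were lower. The median log2 difference was -0.20 over the 31 core subunits and 0.02 over all genes tested. It was -0.40 in the beta ring, where all 7 genes were below 0 under each scaling tried, and -0.15 in the alpha ring. With the main scaling, 5593 of all genes tested were below 0. In bulk tissue, fewer cells of a type and less RNA per cell cannot be told apart.

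PSME1 was at 95.2, 92.6 and 101 in bulk sh-NC and at 144, 139 and 130 in bulk sh-B7-H3 (1), without overlap (0.51 ± 0.09, adjusted p = 0.011). PSME2B was at 9.61, 11.2 and 11.9 against 17.7, 19.3 and 16.4, also without overlap (0.66 ± 0.11, adjusted p = 0.00962). PSME2 did not pass, at 76.2, 87.3 and 84.9 against 99.1, 119 and 84.1 (0.27 ± 0.14, adjusted p = 0.197). Replicate 3 of sh-B7-H3 (1) lay within the control range for PSME2 and held the least PSMB9 of its group, at 16.8 against 29.4 and 36.2. It also held the least leukocyte RNA: the 10 markers summed to 492, 603 and 304 scaled FPKM in sh-B7-H3 (1) and 318, 374 and 481 in sh-NC. CD3E, the T cell marker among the 10, separated the groups where the sum did not, at 5.99, 4.26 and 1.78 against 0.34, 0.583 and 0.261. Other markers of the list overlapped: LAPTM5 averaged 63.6 in sh-B7-H3 (1) and 47.6 in sh-NC, CORO1A 25.8 and 28.4, and ITGAM 8.67 and 9.77. The part of leukocytes in the PSME differences was not tested. PSME3 (50.9, 46.5 and 43.7 against 56.5, 48.3 and 62) and PSME4 (24.9, 22.8 and 19.1 against 21.3, 21.5 and 21.8) overlapped. The log2 ratio of PSMB8 to PSMB5 was -1.29 ± 0.23 (SD, n = 3) in sh-NC and -0.15 ± 0.45 in sh-B7-H3 (1), a difference of 1.13, and those of PSMB9 to PSMB6 and PSMB10 to PSMB7 differed by 1.20 and 0.63 (exact two-sided permutation p of 0.1, 0.1 and 0.3, where 3 against 3 libraries cannot give less than 0.1).

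Among the lower genes, PSMB5 was at 132, 149 and 160 in bulk sh-NC and at 83.3, 118 and 80.2 in sh-B7-H3 (1) (-0.66 ± 0.17, adjusted p = 0.0338). PSMB3, a beta ring subunit without a catalytic site, was at 129, 145 and 149 against 91.4, 111 and 69.5 (-0.66 ± 0.17, adjusted p = 0.0381). Neither gene overlapped between the groups. PSMB6 was at 117, 120 and 127 against 106, 105 and 105 (-0.20 ± 0.08, adjusted p = 0.115), and PSMB7 at 138, 138 and 153 against 101, 126 and 98.6 (-0.40 ± 0.12, adjusted p = 0.0567). Each library labelled sh-B7-H3 (1) was below each control, but both genes missed the threshold.

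In the 19S cap, the lid genes PSMD13, PSMD8 and PSMD14 were lower. PSMD13 was at 50.6, 60.2 and 60.2 against 38.3, 46.5 and 38.2 (-0.47 ± 0.12, adjusted p = 0.0357). PSMD8 was at 180, 195 and 201 against 145, 133 and 147 (-0.44 ± 0.09, adjusted p = 0.0224), and PSMD14 at 78.7, 80.4 and 84.1 against 60.3, 61.7 and 66.2 (-0.37 ± 0.08, adjusted p = 0.0267). The ATPase PSMC4 (83.2, 78.4 and 82.9 against 60.6, 67.4 and 63.4) and the base chaperone PSMD5 (35.3, 33.5 and 34.7 against 25.6, 27.4 and 29.7) had smaller differences of -0.35 ± 0.09 (adjusted p = 0.0315) and -0.32 ± 0.09 (adjusted p = 0.0452). All 5 separated the groups without overlap, but so did 25 of the 45 tested genes in all. The share over all genes was not computed, so this count is no result about these genes. At an unadjusted limma p under 0.05 were 21 of the 45 (46.7%), against 39.7% of all genes tested.

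The calls in bulk tumors depend on single libraries and on the scaling. With FPKM as deposited, unscaled, none of the 45 genes passed, where 675 of all 11658 genes tested were higher and 286 lower. PSME1 and PSME2B lost their calls without bulk sh-B7-H3 (1) replicate 1 (adjusted p = 0.0756 and 0.0551) and kept them when any other library was left out, and PSME1 also lost its call with all 5 groups in 1 fit (adjusted p = 0.0892). None of the 45 genes was lower without bulk sh-B7-H3 (1) replicate 1 or without bulk sh-NC replicate 2 or 3, while 2 were lower without sh-NC replicate 1, 3 without sh-B7-H3 (1) replicate 3 and 14 without sh-B7-H3 (1) replicate 2. Over all genes tested, 11490 to 11691 in these fits, 159, 304 and 195 were lower in the first 3 named. In the others 437, 582 and 1866 were lower, and with all libraries 1005 of 11800. Marker levels of other cells moved with the groups. The summed level of 7 fibroblast markers was 90 to 171 scaled FPKM in bulk sh-NC and 277 to 653 in bulk sh-B7-H3 (1), that of 10 skeletal muscle markers 5.09 to 23.6 against 40.5 to 731, and that of 7 renal epithelial markers 676 to 780 against 788 to 1016, with no marker at 0 throughout a group. Their part in the lower core subunits was not tested.

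An interaction term tested whether the sh-B7-H3 (1) difference was of another size in sorted than in bulk material. None of the 45 genes passed the limma test, and 6 (13.3%) had an unadjusted p under 0.05 (PSMB3, PSMB4, PSMC5, PSMG2, PSMG3 and PSMG4), close to the 14.6% of all genes tested. All 6 had the larger value in sorted cells. Few genes passed at all, 0.249% higher and 0.216% lower. The term was above 0 in 39 of the 45 genes (median 0.28) and in 28 of the 31 core subunits (median 0.30). Over all genes it was above 0 in 5882 of 12062 (median -0.01). Genes read from the same libraries are not independent, so these counts are no test. The largest estimate was that of PSMG3 (1.11 ± 0.35, adjusted p = 0.23), and those of PSME1 and PSME2 were 0.45 (95% interval -0.17 to 1.06) and 0.68 (-0.07 to 1.43). For no single core subunit is the lower level in bulk tumors thus shown to be a difference between bulk and sorted material.

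Bulk and sorted material were compared within each shRNA. With sh-NC, 2 of 45 genes were lower in bulk tumors, PSMA3 (-0.69 ± 0.19, adjusted p = 0.046) and PSMC6 (-0.83 ± 0.17, adjusted p = 0.0172), and none was higher, against 6.48% lower and 10.4% higher over all genes. PSMC6 was at 62.2, 59.1 and 65.3 in bulk and 87.6, 122 and 128 in sorted cells, and PSMA3 at 38.7, 39.3 and 39.6 in bulk and 46.9, 72.4 and 76.2 in sorted cells. The groups did not overlap for either. Both calls were lost without any 1 bulk sh-NC library or without sorted sh-NC replicate 2, that of PSMA3 also without sorted sh-NC replicate 3 (adjusted p = 0.0952), and without sorted sh-NC replicate 1, the lowest of its group, 20 genes were lower. In that last fit 1917 of all 11327 genes tested were lower.

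With sh-B7-H3 (1), 28 of 45 genes were lower in bulk tumors and none was higher, where 17.1% of all genes were lower and 21.1% higher. The 28 were 12 of the 14 tested 20S genes, 13 of the 21 19S genes, PSME2, PSMG1 and PSMG4. The median log2 difference was -0.63 over the 31 core subunits and 0.03 over all genes tested. PSMD14 differed the most, at 60.3, 61.7 and 66.2 in bulk against 170, 119 and 117 in sorted cells (-1.08 ± 0.16, adjusted p = 0.00317). PSMA6, of the alpha ring, followed with 115, 106 and 105 against 278, 196 and 188 (-0.99 ± 0.16, adjusted p = 0.00467). Neither gene overlapped. PSME3 (0.07 ± 0.12) and PSME4 (0.20 ± 0.11) did not pass, nor did PSME1 (-0.41 ± 0.19, adjusted p = 0.123). Without bulk sh-B7-H3 (1) replicate 1 the number of lower genes was 11 and without sorted sh-B7-H3 (1) replicate 1, the library with the highest 20S sum, it was 17. Over all genes tested, 736 of 11144 and 1074 of 11586 were lower in these fits. Leukocyte markers summed to 304 to 603 scaled FPKM in these bulk tumors and to 6.89 to 10 in the sorted cells. Bulk tumors therefore held other cells as well, and their part in these differences was not tested.

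**Figure D5:**
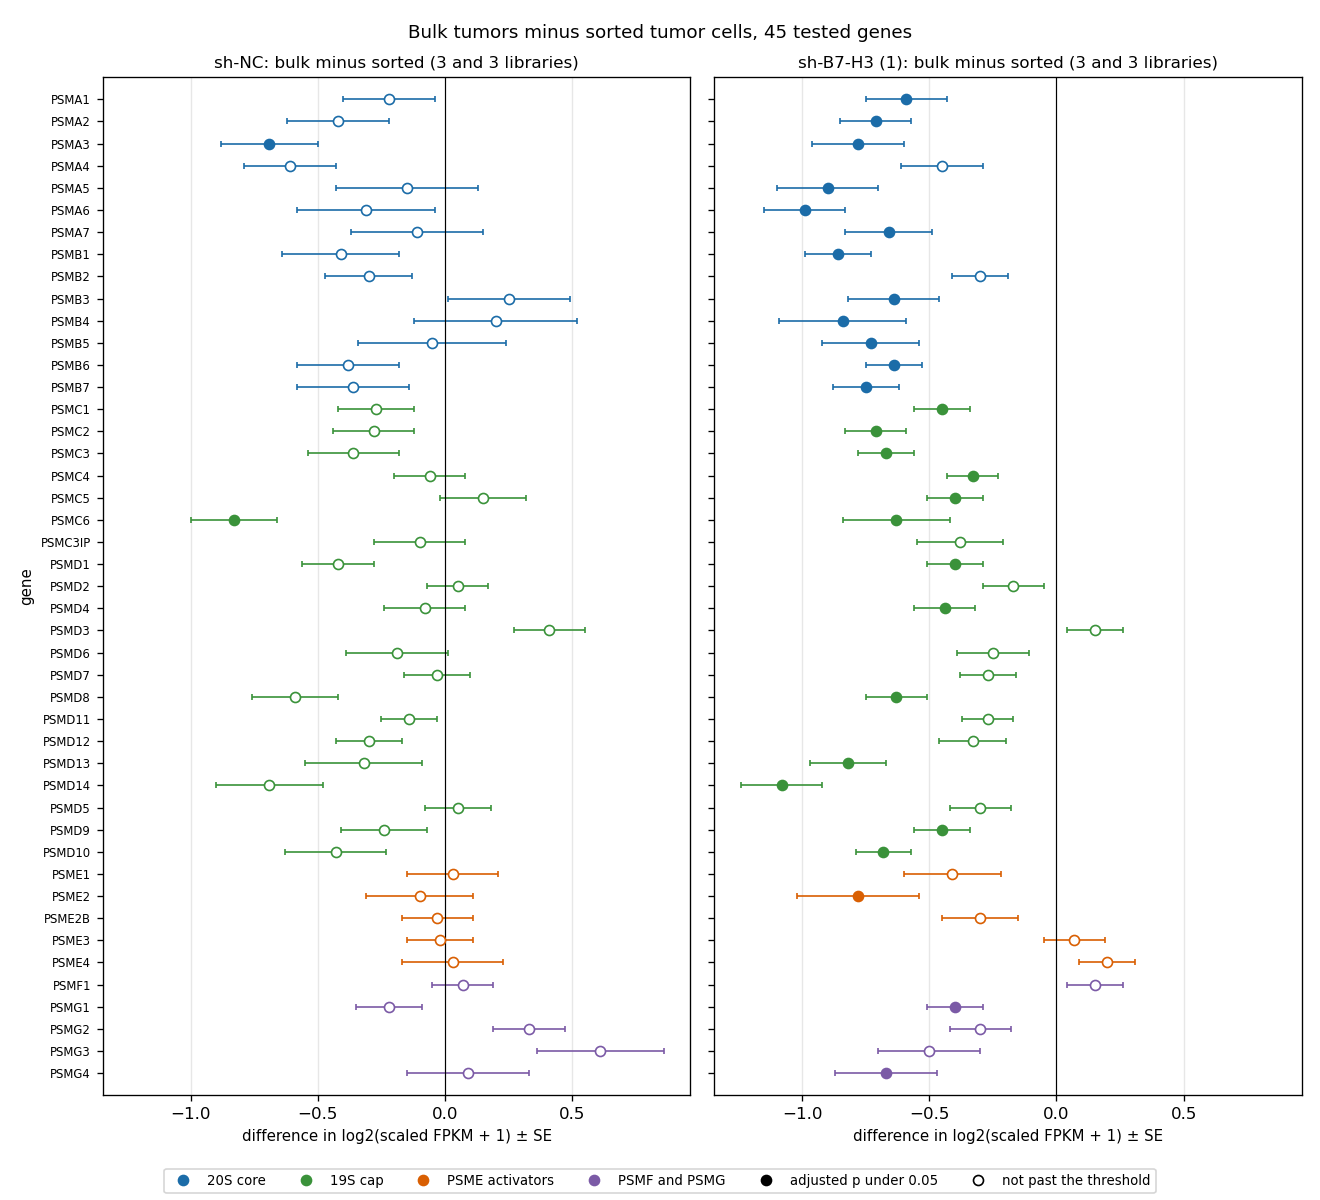
Differences in log2(scaled FPKM + 1) ± SE (x axis) between bulk tumors and sorted tumor cells for the 45 tested genes (y axis), with sh-NC on the left and sh-B7-H3 (1) on the right (3 against 3 libraries each) and filled points for adjusted p under 0.05. With sh-B7-H3 (1), 28 genes are filled and all of these lie left of 0, down to -1.08 for PSMD14, and with sh-NC 2 are filled.

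The wider pathway was read from 28 genes that bind, assemble, regulate or feed the proteasome, of which 27 were measured and tested here. In sorted cells 2 were higher in the libraries labelled sh-B7-H3, the proteasome-bound ubiquitin ligase UBE3C (0.46 ± 0.11, adjusted p = 0.0114) and ZFAND2A, a stress-induced proteasome-binding protein (0.57 ± 0.13, adjusted p = 0.0121), and 2 were lower, where 12.6% of all genes were higher and 7.92% lower. AKIRIN2, which brings proteasomes into the nucleus, fell from 41, 37.7 and 38.1 scaled FPKM in sh-NC to 24.8, 25.1 and 27.3 in sh-B7-H3 (1) and 24.8, 25.3 and 24.6 in sh-B7-H3 (2) (-0.60 ± 0.08, adjusted p = 0.000381). The shuttle factor RAD23B was at 74.8, 71 and 56.4, then 35.7, 46.4 and 38.9, then 35.5, 45.5 and 38.7 (-0.73 ± 0.13, adjusted p = 0.00231). Without the leukocyte-rich library these 4 genes still passed, at 0.46 ± 0.12 for UBE3C (adjusted p = 0.0244), 0.56 ± 0.15 for ZFAND2A (0.0266), -0.60 ± 0.09 for AKIRIN2 (0.00136) and -0.70 ± 0.13 for RAD23B (0.00556). Neither AKIRIN2 nor RAD23B overlapped between sh-NC and the others, and POMP, the chaperone that closes the 20S core, missed the threshold (0.60 ± 0.21, adjusted p = 0.0676). The transcription factors of proteasome genes did not pass, with NFE2L1 at 0.24 ± 0.11 (adjusted p = 0.165) and NFE2L2 at -0.11 ± 0.11 (adjusted p = 0.523). In bulk tumors, AKIRIN2 was again lower (-0.47 ± 0.10, adjusted p = 0.0178), and the ubiquitin-activating enzyme UBA6 (0.43 ± 0.11, adjusted p = 0.0338) and the shuttle factors UBQLN1 (0.33 ± 0.09, adjusted p = 0.039) and UBQLN2 (0.44 ± 0.10, adjusted p = 0.0234) were higher, against a background of 12.8% higher and 8.52% lower. The median log2 difference of the 27 genes was 0.03 for the sorted comparison and -0.02 for the bulk one.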

How the data were processed

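The authors deposited FPKM, fragments scaled by transcript length and library size, for 24917 gene symbols in 15 libraries. They sequenced poly(A) RNA as single reads of 75 cycles and name the VIPER pipeline. The labels give mm10. The aligner and annotation are not given in the sources used here, and the labels and the methods name different library kits. A deposited table of log2(FPKM + 1) for a smaller set of genes, which holds none of the 47 genes, and read totals were not used. The depth relative to 1 library, from the spacing of low values, was 0.468 to 1, and the precision in reads was not computed.

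After 26 date-like symbols were left out, each library was scaled by the median ratio of its FPKM to the geometric mean of all libraries, taken over the 9872 genes that all libraries hold at 1 FPKM or more, and log2(scaled FPKM + 1) was fitted across all genes with limma 3.58.1 (R 4.3.3, mean-variance trend). Genes with 1 scaled FPKM in at least 3 libraries of a comparison were tested, with Benjamini-Hochberg adjustment over all of them and a threshold of 0.05. The pseudocount understates changes of low genes. Catalytic ratios were compared by exact two-sided permutation tests, adjusted over the 3 ratios. Other steps used Python 3.11.15, numpy 2.4.6, pandas 2.3.3 and scipy 1.17.1. The fits were tested on simulated data.

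Groups came from the sample titles. Sorted sh-B7-H3 (1) and (2) were also read with the number as a block, since same-numbered libraries correlated in their deviations from the group means (r = 0.51, 0.43 and 0.44 across genes). This does not show that they are paired, since sorted sh-NC replicate 3 and sorted sh-B7-H3 (1) replicate 1 reached 0.64. For other pairs of compared groups at least 1 correlation between same-numbered libraries was 0.1 or lower. Per-library values were given for PSMB5 to PSMB7, PSME1 to PSME4 and PSMD14, for up to 3 genes at each end of each class past the threshold in the sorted (both pools) and bulk comparisons, and for up to 3 past it in the interaction or between pools. The genes, lists and rules were chosen with earlier results of these data known. Alternatives changed the scaling, pseudocount, filter, samples fitted and replicate block and left out each library. Leaving out the 3 libraries with over 50% MIR6236 was added after seeing the data.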

Additional observations from a re-analysis of the deposited data

Results flagged for a closer look

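PSMA8, the testis alpha subunit, was at 0.217 scaled FPKM in sorted sh-B7-H3 (2) replicate 1 and at 0 in the other 5 sorted libraries labelled sh-B7-H3. PSMB11, the thymus catalytic subunit, was at 0.014 in sorted sh-B7-H3 (1) replicate 2 and at 0 in the other 5. Each stood apart by its gap to the rest of its group of 6, in a screen over 47 genes. With the other 5 libraries at 0, any value above 0 passes this screen. Its rate of about 5% by chance therefore does not apply to these genes. The first of these libraries is also the one with bulk-like leukocyte markers (summed level 320), and PSMA8 was at 0.0518 to 0.137 in bulk tumors.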

How the results depend on the processing

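In sorted cells (both pools), PSME1, PSME2 and PSME2B stayed past the threshold under every alternative run, at log2 differences of 0.74 to 1.15, 0.79 to 1.22 and 0.86 to 1.16. Of the 45 tested genes, 5 were called there, 8 with equal sums without MIR6236, 3 without the MIR6236-rich libraries and 3 to 8 when 1 library was left out. With FPKM as deposited 5 were also called, but 5 were higher and 0 lower, so PSMD8 lost its call. In that fit 1798 of all 11553 genes tested were higher and 284 lower. The count for sh-B7-H3 (1) alone was 2, with 1 without the filter, 5 with all 5 groups in 1 fit, 1 without the MIR6236-rich libraries and 1 to 5 when 1 library was left out. For sh-B7-H3 (2) alone it was 3, with 1 without the filter, 1 without the MIR6236-rich libraries and 1 to 7 when 1 library was left out. In bulk tumors it was 9, with 0 on FPKM as deposited, 4 with equal sums, 5 with quantile normalization, 4 with all 5 groups in 1 fit and 0 to 16 when 1 library was left out. Between bulk and sorted sh-NC material it was 2, with 0 as deposited, 5 with equal sums, 5 with quantile normalization, 7 with all 5 groups in 1 fit, 0 without the MIR6236-rich libraries and 0 to 21 when 1 library was left out. Between bulk and sorted sh-B7-H3 (1) material it was 28, with 17 with quantile normalization and 11 to 26 when 1 library was left out. The interaction called none of the 45 under any alternative. The number called over all genes tested also moved. In bulk tumors it was 1515 higher and 1005 lower of 11800. As deposited it was 675 and 286 of 11658, and 1927 and 1866 of 11490 without sh-B7-H3 (1) replicate 2. Between bulk and sorted sh-NC material it was 1184 and 740 of 11418, and 2519 and 1917 of 11327 without sorted sh-NC replicate 1. Causes of these changes were not tested.

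With the replicate number as a block, 2 genes were called between the pools, whose same-numbered libraries correlated but are not known to be paired. For other groups the block gave 0 calls for sh-B7-H3 (1), 1 for sh-B7-H3 (2), 2 in bulk tumors and 4 between bulk and sorted sh-NC. Over all genes, 6.39%, 8.47%, 7.9% and 11.1% were higher in these blocked fits and 1.81%, 3.94%, 4.08% and 6.41% lower.

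The catalytic ratios kept their direction in each pool alone. The differences were 2.01 and 1.69 for PSMB8 to PSMB5, 2.81 and 2.73 for PSMB9 to PSMB6 and 1.83 and 1.91 for PSMB10 to PSMB7, for sh-B7-H3 (1) and (2), each with an exact permutation p of 0.1, the smallest that 3 against 3 libraries allow.

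FPKM as deposited moved the median of all genes to 0.20 in sorted cells and to -0.23 between bulk and sorted sh-B7-H3 (1) material, and equal sums moved it to 0.13 in bulk tumors. The median of the 45 genes kept its sign under each scaling, except between the pools, where it was 0.06 and turned to -0.03 with equal sums and -0.04 with quantile normalization. Read totals were not used, so no value has a counting interval.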
